A study of Homo sapiens with 23 samples.

Results

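A set of 40 interferon-stimulated genes was followed through Src-driven transformation of breast epithelial cells with normal or depleted STAT3. The genes were a fixed list of symbols, each read from probe sets that the platform annotation assigns to that gene alone, with the probe set of highest mean log2 signal over all arrays as its main probe set. All 40 were on the array, among 19775 genes with a probe set of their own. The cells were MCF-10A-ER-Src, a single non-tumorigenic human mammary epithelial line that carries the Src kinase fused with the estrogen receptor's hormone-binding region. Src was switched on with 1 µM 4-hydroxytamoxifen (TAM). The control treatment was ethanol (EtOH), and RNA was taken after 4 or 24 h. Before treatment the cells received 25 nM of a non-targeting siRNA pool (siNEG) or of a pool against STAT3 (siSTAT3). Each of the 8 siRNA, treatment and time groups held 3 arrays, except siSTAT3 TAM 24 h, which held 2. The siRNAs were transfected into the bulk culture, so every value is an average over cells that took up more or less of them, and fewer responding cells cannot be told apart from less RNA per cell. The study's methods call the RNA samples biological replicates, and whether they were separate cultures is not given in the labels, so the p-values measure the spread between these arrays.

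Interferon-stimulated genes are the effector arm of the interferon response. Interferons bind receptors on the cell surface, the receptor-bound kinases JAK1 and TYK2 phosphorylate STAT proteins, and STAT complexes with IRF9 enter the nucleus and bind a motif called the interferon-stimulated response element (ISRE); other STAT dimers bind the gamma-activated site (GAS). The induced proteins degrade viral RNA, block viral entry and release, tag proteins with ISG15, sense foreign nucleic acids and load peptides for antigen presentation. STAT3 belongs to the same factor family and is itself activated by Src and by cytokines such as interleukin-6.

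Most of the promoters share a motif. For 32 of the 40 genes the RefSeq promoter table (GRCh38.p14, 250 bases before to 50 after the transcription start) held 43 windows, and an ISRE, taken as GAAA repeated after 2 free bases and searched on both strands, was present in 27 of the 43, or 62.8%, beside 3.57% of all 35116 promoter windows. A GAS written as TTCNNNGAA was present in 13 windows, or 30.2%, beside 7.66% of all windows, and a match of one motif overlapped a match of the other in 6 windows. The 130 bases upstream of the start are shown for 6 genes that stand for the patterns described below. Under TAM at 24 h, 4 of them were higher with siSTAT3 than with siNEG and 2 were lower. ISRE matches are in capitals, and each sequence is written 5′ to 3′ on the strand of the gene.
IFIT1: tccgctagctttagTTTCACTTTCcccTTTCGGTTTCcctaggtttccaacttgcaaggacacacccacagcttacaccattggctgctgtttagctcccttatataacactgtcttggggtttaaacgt
ISG15: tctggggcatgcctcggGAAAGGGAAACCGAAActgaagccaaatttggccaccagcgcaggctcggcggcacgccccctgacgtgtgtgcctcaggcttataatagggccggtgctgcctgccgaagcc
IFI27: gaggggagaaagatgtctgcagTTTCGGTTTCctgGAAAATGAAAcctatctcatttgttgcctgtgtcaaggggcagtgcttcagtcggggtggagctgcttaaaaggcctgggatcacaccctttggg
IFI6: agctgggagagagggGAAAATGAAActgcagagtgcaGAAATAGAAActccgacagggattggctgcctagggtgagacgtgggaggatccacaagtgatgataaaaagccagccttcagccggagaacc
ISG20: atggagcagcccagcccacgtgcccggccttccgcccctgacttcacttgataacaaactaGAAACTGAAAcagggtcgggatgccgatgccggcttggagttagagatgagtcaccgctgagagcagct
IFITM1: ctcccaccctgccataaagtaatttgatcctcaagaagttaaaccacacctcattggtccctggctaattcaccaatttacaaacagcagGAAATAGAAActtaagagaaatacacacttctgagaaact
They lie at chr10:89392493-89392622 (plus strand) for IFIT1, chr1:1013367-1013496 (plus) for ISG15, chr14:94110606-94110735 (plus) for IFI27, chr1:27672193-27672322 (minus) for IFI6, chr15:88638886-88639015 (plus) for ISG20 and chr11:313910-314039 (plus) for IFITM1. IFIT1, ISG15, IFI27 and IFI6 each carried 2 matches in this stretch, and ISG20 and IFITM1 carried 1 each. Where a gene had several windows, the one with the most ISRE matches in this stretch is shown. The 6 are therefore no sample of the members. OAS1 and HERC6, also higher with siSTAT3 at 24 h of TAM, held no ISRE match in their windows. A match describes the letters only.

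Signals are MAS5 values on a linear scale, set by the authors so that the trimmed mean of each array is 500 units, and a gene whose group means all lie under 100 units is called dim here. Of the 40 genes 35 reached a group mean of 100 units, and EPSTI1, MX2, OAS2, RSAD2 and XAF1 did not. Changes are differences of log2 signal with the standard error of a limma fit to all 23 arrays, and a gene is called where the Benjamini-Hochberg adjusted p over all 54675 probe sets is under 0.05. A ± after a signal in units is the standard deviation over the arrays of that group. The median signal of the arrays lay between 73.5 and 85.3 units. The ratio of the 3′ to the 5′ probe set of ACTB, a sign of RNA integrity, lay between 1.21 and 1.44 and was 1.21 on both siSTAT3 TAM 24 h arrays, the lowest of all groups.

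The labelled cell type was checked against marker lists. The basal and epithelial markers KRT5, KRT14, EPCAM, CDH1 and ITGA6 had group means of 3082 units or more. Of the luminal markers KRT18 lay at 13468 to 17275 units, KRT8 at 2637 to 9919, GATA3 at 1020 to 1764 and ESR1 at 160 to 379, while KRT19 did not pass 20.5 units. Of the immune markers PTPRC, CD3E and TYROBP stayed under 100 units, ITGAM reached 107 units and CD14 845 units. The fibroblast marker DCN was bright (1571 to 6858 units) while LUM, PDGFRB and COL1A2 stayed under 100 units, and of the endothelial markers PECAM1 lay at 190 to 422 units with VWF and CDH5 under 100.

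The knockdown was present on every array. STAT3 read 4091, 4061 and 3914 units in siNEG EtOH 4 h and 339, 355 and 298 units in siSTAT3 EtOH 4 h. Under TAM at 4 h it read 5626, 5974 and 5128 units with siNEG and 475, 406 and 393 units with siSTAT3. At 24 h it read 4303, 4104 and 3968 units in siNEG EtOH, 6753, 5955 and 5650.1 units in siNEG TAM, 495, 375 and 326 units in siSTAT3 EtOH and 441 and 359 units in siSTAT3 TAM. No siSTAT3 array overlapped any siNEG array. The log2 change lay between -3.94 and -3.39 over the 4 knockdown comparisons.

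At 24 h of TAM, 20 of the 40 genes were higher and 4 lower in siSTAT3 than in siNEG cells, where 9.72% of all genes were higher and 6.77% lower. The median log2 change was 0.57 over the 40 genes and 0.03 over all genes. Marker lists moved in the same comparison. The summed signal of the 5 luminal markers was 16188 to 18557 units on the siNEG TAM 24 h arrays and 25432 to 31990.1 units on the siSTAT3 TAM 24 h arrays, with 2 of the 5 called higher, and CDH1 was higher by 1.89 in log2. The sum of the 4 fibroblast markers was 6377 to 7357 units with siNEG and 1942 to 2005 units with siSTAT3, where DCN alone was called (-1.87). The sum of the 5 immune markers was 889.9 to 915.6 and 716.5 to 840.2 units, that of the 3 endothelial markers 198 to 253 and 336 to 339 units, and that of the 5 basal markers 49565 to 50545 and 51650.3 to 57340.1 units. Of the immune markers 1 was called lower, and of the endothelial markers 1 was called higher. Of the basal markers, CDH1 among them, 2 were called higher and 1 lower, with log2 changes from -0.59 to 1.89. The part of these shifts in the result was not tested. In EtOH the knockdown changed fewer of the 40 genes. At 4 h 2 were higher and 3 lower (1.88% and 2.41% of all genes). At 24 h 1 was higher and 3 lower (1.4% and 1.46%). After 4 h of TAM 4 were higher and 7 lower (4.69% and 4.61%). In a fit to the compared arrays alone the count at 24 h of TAM was 10 in place of 24, with 643 of all genes called. It was 0 in either EtOH comparison, with 24 of all genes called at 4 h and 0 at 24 h. In EtOH limma gave an unadjusted p under 0.05 for 4 higher and 7 lower members at 4 h and for 5 higher and 7 lower at 24 h.

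**Figure D1:**
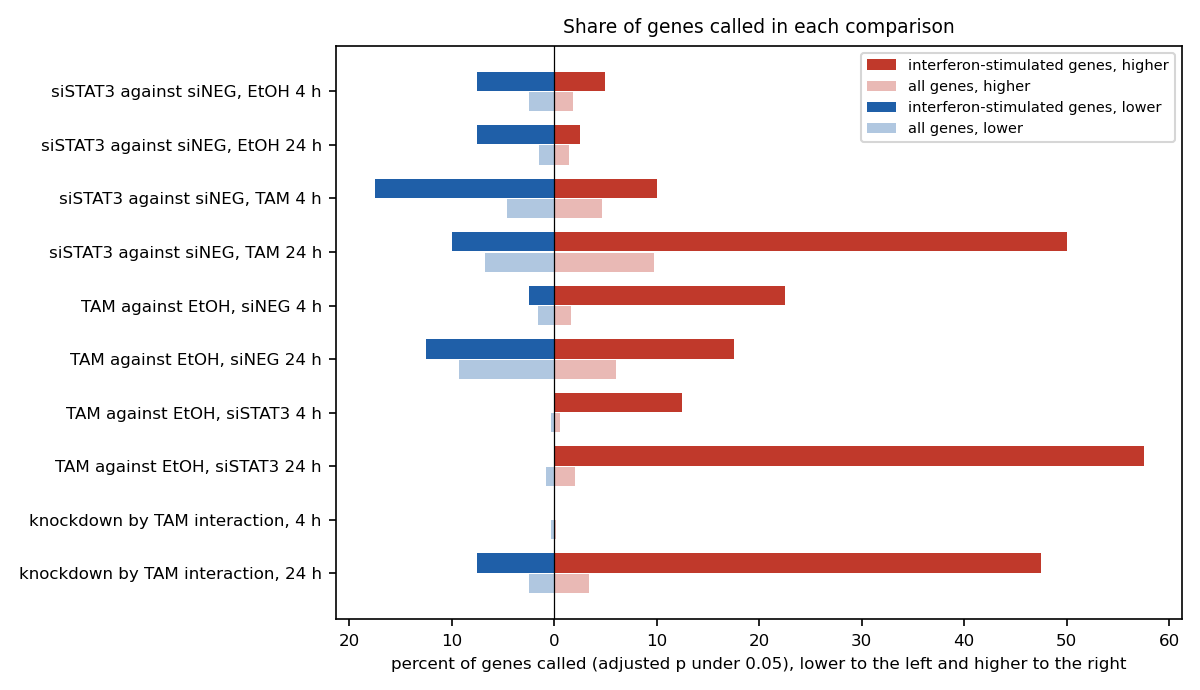
Percent of the 40 interferon-stimulated genes (solid bars) and of all 19775 genes (pale bars) called higher (to the right) or lower (to the left) in the 4 knockdown comparisons, the 4 TAM comparisons and the 2 interactions. The solid bars reach 57.5% of the genes for TAM against EtOH in siSTAT3 cells at 24 h, where the pale bar is at 2%, and 22.5% for siNEG cells at 4 h.

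The TAM response was also tested within each siRNA. In siNEG cells 9 genes rose and 1 fell at 4 h (1.67% and 1.58% of all genes), and 7 rose and 5 fell at 24 h (6.06% and 9.31%). In siSTAT3 cells 5 rose and 0 fell at 4 h (0.531% and 0.288%; 2 genes fell at an unadjusted p under 0.05 by limma), and 23 rose and 0 fell at 24 h (2% and 0.748%; 0 fell at an unadjusted p under 0.05). The median log2 change at 24 h was 0.14 in siNEG cells and 0.69 in siSTAT3 cells, beside -0.04 and -0.01 over all genes. The difference between the TAM responses of the siRNA groups, tested as an interaction, was called at 24 h for 22 genes, 19 with a higher and 3 with a lower response in siSTAT3 cells (3.42% and 2.49% of all genes). At 4 h it was called for 0 genes, with 2 higher and 3 lower at an unadjusted p under 0.05 by limma (0.192% of all genes were called higher and 0.329% lower).

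These counts rest on few arrays. The 12 genes called in siNEG cells at 24 h became 7 without siNEG TAM 24 h replicate 1 and 5 in a fit to the compared arrays. That last fit called 1106 of all 19775 genes. The 23 genes that rose in siSTAT3 cells at 24 h became 13 without siSTAT3 TAM 24 h replicate 3, 18 with the ACTB ratio as a covariate and 0 in a fit to the 5 compared arrays, where 28 of the 40 were higher at an unadjusted p under 0.05 by limma and 0 of all 19775 genes were called. The 22 interactions became 11 without either siSTAT3 TAM 24 h array, 13 without siNEG EtOH 24 h replicate 1, 14 without siNEG TAM 24 h replicate 2 or siSTAT3 EtOH 24 h replicate 1, and 13 with the ACTB ratio as a covariate.

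**Figure D2:**
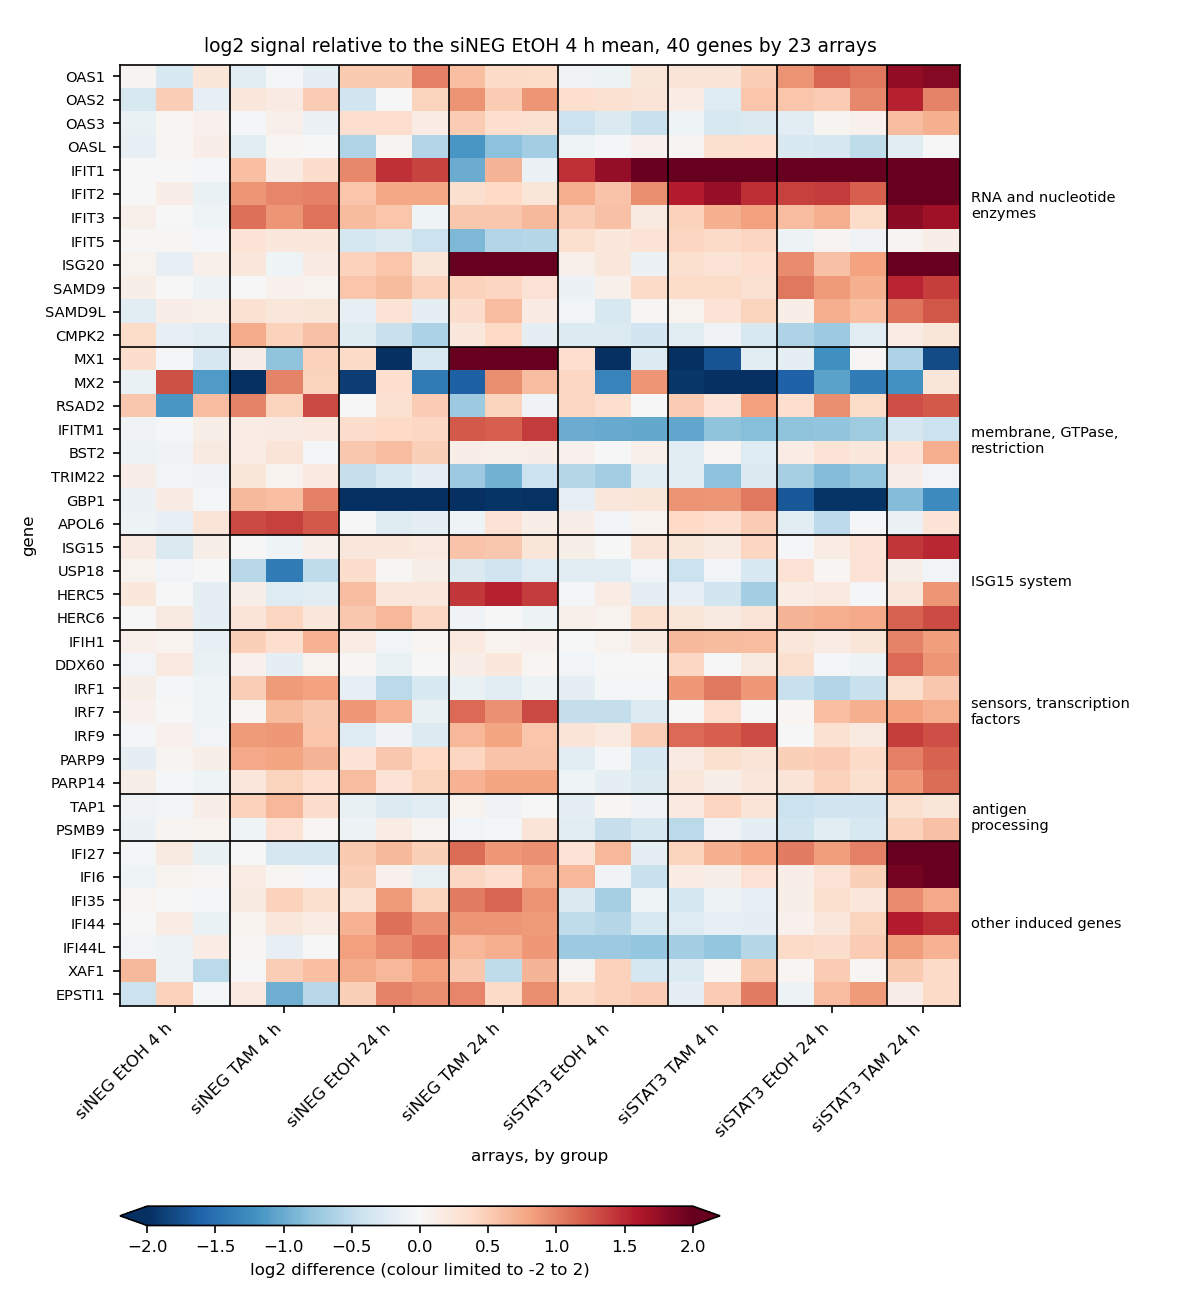
Log2 signal of the 40 genes (rows, by role) on the 23 arrays (columns, by group) relative to the gene's mean in siNEG EtOH 4 h, with red above and blue below and the colour limited to -2 to 2. The 2 siSTAT3 TAM 24 h arrays are red for most rows, MX1 is dark red on the 3 siNEG TAM 24 h arrays, and IFITM1 is blue on every siSTAT3 array.

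The IFIT genes encode proteins that bind viral RNA, and IFIT1 had the largest difference of the members that were higher with siSTAT3 at 24 h of TAM. It read 30.6, 97.4 and 56.1 units in siNEG TAM 24 h and 702 and 839 units in siSTAT3 TAM 24 h, a log2 difference of 3.80 ± 0.32, adjusted p = 2.01e-07. In EtOH at 24 h it read 118, 168 and 156 units with siNEG and 289, 315 and 262 units with siSTAT3. TAM moved it in opposite directions: it fell in siNEG cells (log2 change -1.40 ± 0.28, adjusted p = 0.00264) and rose in siSTAT3 cells (1.41 ± 0.32, adjusted p = 0.0276), an interaction of 2.82 ± 0.42, adjusted p = 0.000541. IFIT1 was already higher with siSTAT3 at 4 h, by 1.73 in EtOH and 2.03 in TAM, and its 24 h EtOH difference of 0.98 was not called. With 32 units added to each signal, since siNEG TAM 24 h is under 100 units, the difference at 24 h of TAM was 3.16 and the interaction 2.32, both still called. IFIT2 moved the same way with a smaller standard error. It read 123, 129 and 116 units in siNEG TAM 24 h and 426 and 429 units in siSTAT3 TAM 24 h (1.80 ± 0.12, adjusted p = 1.61e-08), fell with TAM in siNEG cells (-0.37) and rose in siSTAT3 cells (0.81). Over 14 recomputations with other settings or 1 array left out, that fall kept its call in 4. The rise of IFIT1 in siSTAT3 cells kept its call in 6 of 14. Both kept their direction throughout. IFIT2 was the IFIT gene called higher with siSTAT3 in all 4 knockdown comparisons, by 0.62 to 1.80.

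IFIT3, which forms a complex with IFIT1, read 896, 959.9 and 755 units in siSTAT3 EtOH 24 h and 2007 and 1891 units in siSTAT3 TAM 24 h (1.17 ± 0.18, adjusted p = 0.00184), while the siNEG groups at 24 h overlapped (0.21). IFIT5 fell with TAM in siNEG cells (-0.34) and was 0.78 higher with siSTAT3 at 24 h of TAM. Of the OAS enzymes, which make oligoadenylates that switch on RNase L, OAS1 read 278, 237 and 235 units in siNEG TAM 24 h and 626 and 651 units in siSTAT3 TAM 24 h (1.36 ± 0.17, adjusted p = 3e-05), and the groups did not overlap. OASL, the family member without that enzymatic activity, read 132, 167 and 183 against 255 and 299 units in the same groups (0.80 ± 0.18, adjusted p = 0.00703). OAS3 rose with TAM in siSTAT3 cells at 24 h (0.70) and had an interaction of 0.59. OAS2 was dim.

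SAMD9, a cytoplasmic factor that restricts poxviruses, read 1002, 984 and 893 units in siNEG TAM 24 h and 2086 and 1895 units in siSTAT3 TAM 24 h (1.05 ± 0.13, adjusted p = 2.06e-05). Its neighbour SAMD9L was 0.78 higher with siSTAT3 in the same comparison. CMPK2, a mitochondrial nucleotide kinase, was lower with siSTAT3, and at 4 h. It read 357, 292 and 320.3 units in siNEG TAM 4 h and 185, 203 and 172 units in siSTAT3 TAM 4 h (-0.79 ± 0.18, adjusted p = 0.00976), and the groups did not overlap. In all, 8 of the 12 RNA-binding and nucleotide enzymes were higher and 1, ISG20, was lower with siSTAT3 at 24 h of TAM. Of all genes 9.72% were higher and 6.77% lower there.

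IFI27, a small mitochondrial protein, had the largest TAM rise of the 40 genes in siSTAT3 cells. It read 236, 207 and 233 units in siSTAT3 EtOH 24 h and 1963 and 2261 units in siSTAT3 TAM 24 h, a log2 change of 3.23 ± 0.19, adjusted p = 1.04e-07. In siNEG cells it went from 167, 182 and 162 units in EtOH to 251, 211 and 217 units in TAM (0.41, not called), so that the interaction was 2.81 ± 0.26, adjusted p = 3.26e-06. At 4 h of TAM it was 0.88 higher with siSTAT3. IFI6, a relative of IFI27, read 157, 173 and 199 units in siSTAT3 EtOH 24 h and 537 and 597 units in siSTAT3 TAM 24 h (1.69 ± 0.24, adjusted p = 0.000705), and the highest array of any other group read 235 units. IFI44 read 288, 318 and 371 and 805 and 756 units in those groups (1.27 ± 0.13, adjusted p = 2.58e-05) and 498, 499 and 488 units in siNEG TAM 24 h. For IFI44 the knockdown effect changed sign: it was lower with siSTAT3 in EtOH at both times (-0.47 and -0.65) and higher at 24 h of TAM (0.66). IFI44L was lower with siSTAT3 in both EtOH groups and at 4 h of TAM (-0.74, -0.53 and -0.63) and level at 24 h of TAM (0.01, not called).

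**Figure D3:**
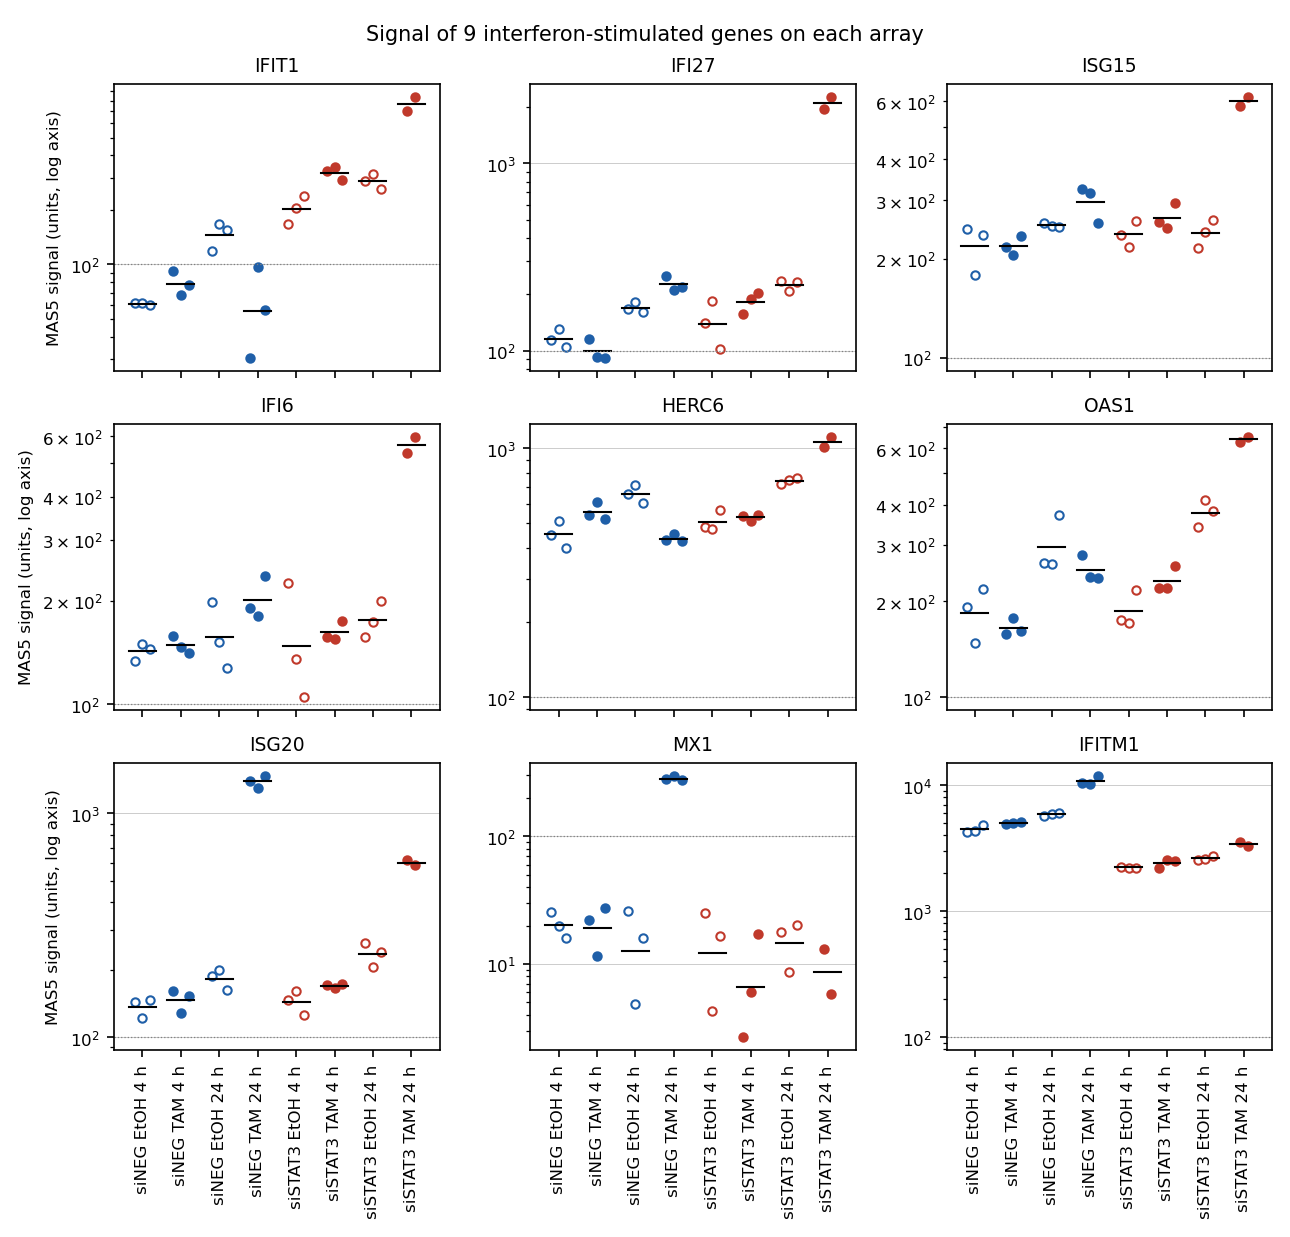
MAS5 signal (log axis) of 9 genes on each array, with open circles for EtOH, filled circles for TAM, blue for siNEG and red for siSTAT3; black bars are geometric means and the dotted line marks 100 units. In the top 6 panels the siSTAT3 TAM 24 h arrays lie above all others; in the bottom 3 the highest arrays are those of siNEG TAM 24 h.

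ISG15, a ubiquitin-like modifier, read 255, 251 and 250.1 units in siNEG EtOH 24 h, 325, 317 and 257 units in siNEG TAM 24 h, 215, 241 and 262 units in siSTAT3 EtOH 24 h and 580.4 and 618 units in siSTAT3 TAM 24 h. The last group lay above all the others, with a TAM effect of 1.33 ± 0.14, adjusted p = 4.85e-05 and an interaction of 1.09 ± 0.19, adjusted p = 0.00207. HERC6, of the ligase family that attaches ISG15, read 658, 715 and 603 units in siNEG EtOH and 429, 453 and 423 units in siNEG TAM at 24 h, without overlap (-0.60 ± 0.10, adjusted p = 0.000582). In siSTAT3 TAM 24 h it read 1018 and 1115 units (1.29 ± 0.11, adjusted p = 3.71e-07 against siNEG TAM). Averaging in its second, dim probe set turned that difference to -0.24, with an adjusted p of 0.869. HERC5, the main ISG15 ligase in human cells, had the opposite pattern: 231, 175 and 177 units in siNEG EtOH 24 h, 400.2, 435 and 395 units in siNEG TAM 24 h (1.09 ± 0.18, adjusted p = 0.000451) and 176 and 278 units in siSTAT3 TAM 24 h (-0.89 against siNEG). USP18, which removes ISG15 and damps the receptor, read 252, 231 and 238 units in siNEG EtOH 4 h and 163, 91.4 and 169 units in siNEG TAM 4 h (-0.82 ± 0.18, adjusted p = 0.0186), and it was the member that fell in that comparison.

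Among sensors and transcription factors, IRF9 rose with TAM whichever siRNA was present. It read 426, 465 and 421 units in siNEG EtOH 4 h and 790.4, 794 and 641 units in siNEG TAM 4 h (0.76), and 434, 540.1 and 497 and 1134 and 1069 units in siSTAT3 EtOH and TAM at 24 h (1.17 ± 0.13, adjusted p = 5.64e-05). It rose in all 4 TAM comparisons, was higher with siSTAT3 under TAM by 0.45 at 4 h and 0.67 at 24 h, and its interaction at 24 h (0.31) was not called. IRF1, which binds ISRE-like sites, read 337, 375 and 371 units in siSTAT3 EtOH 4 h and 693, 797 and 696 units in siSTAT3 TAM 4 h (1.01 ± 0.12, adjusted p = 0.000357). At 24 h the TAM rise of IRF1 was 0.93 in siSTAT3 cells and 0.19, not called, in siNEG cells, an interaction of 0.74. DDX60, a helicase that aids RNA sensing, read 672, 533 and 506 units in siSTAT3 EtOH 24 h and 1181 and 992 units in siSTAT3 TAM 24 h (0.94 ± 0.14, adjusted p = 0.00165). IFIH1, the RNA sensor MDA5, rose at 4 h in both siRNA groups (0.50 and 0.55) and at 24 h in siSTAT3 cells (0.70). PARP9 and PARP14, ADP-ribosyltransferase family members, rose by 0.63 and 0.64 with TAM in siSTAT3 cells at 24 h.

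Both antigen-processing members rose with TAM in siSTAT3 cells at 24 h, where 2% of all genes rose. Neither was called between the siRNA groups at 24 h of TAM, though both were higher with siSTAT3 at an unadjusted p under 0.05 by limma. PSMB9, an immunoproteasome subunit, read 549.6, 625 and 584 units in EtOH and 1001 and 1090.3 units in TAM (0.84 ± 0.15, adjusted p = 0.00582), against 700.0, 707 and 872 units in siNEG TAM 24 h. TAP1, which carries peptides into the endoplasmic reticulum, rose by 0.68 there and by 0.49 in siNEG cells at 4 h. Of the membrane and restriction factors, TRIM22, a ubiquitin ligase, read 887, 769 and 818 units in siSTAT3 EtOH 24 h and 1546 and 1353 units in siSTAT3 TAM 24 h (0.81 ± 0.18, adjusted p = 0.0296), and it was lower with siSTAT3 at 4 h of TAM (-0.61). The rise of TRIM22 kept its call in 6 of 14 recomputations with other settings or 1 array left out, and the 4 h difference in 8. BST2, or tetherin, fell with TAM in siNEG cells at 24 h (-0.42) and had an interaction of 0.71, with 2441 and 3358 units on the siSTAT3 TAM arrays. The fall of BST2 kept its call in 7 of 14 recomputations and the interaction in 8 of 20.

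**Figure D4:**
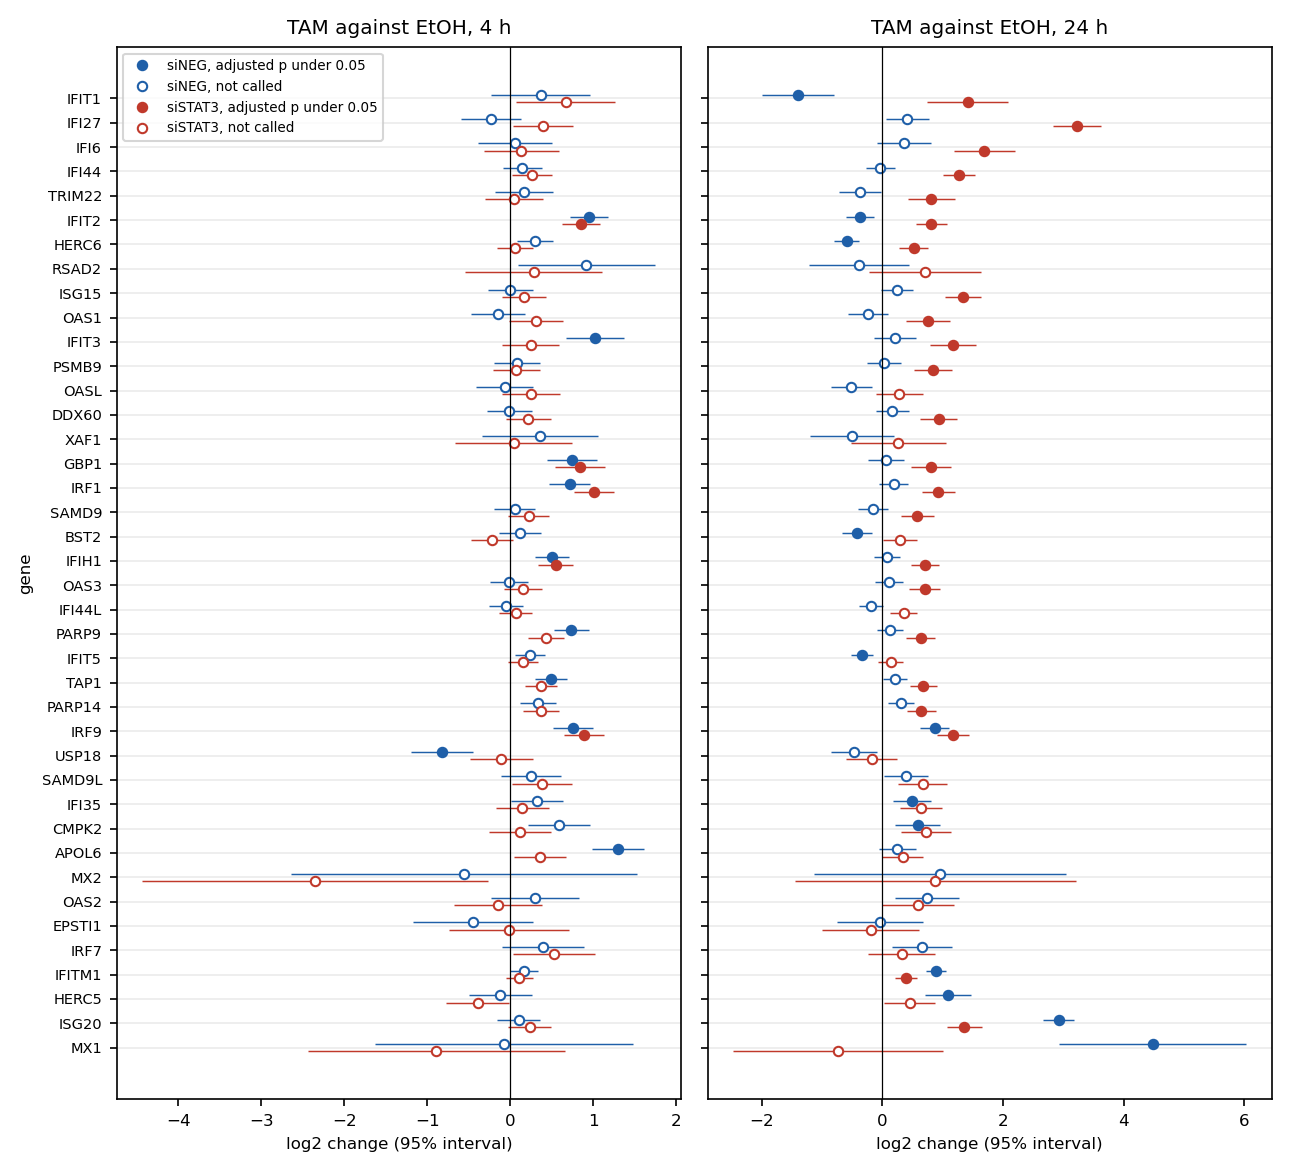
Log2 change with TAM at 4 h (left) and 24 h (right) for the 40 genes in siNEG (blue) and siSTAT3 (red) cells, with 95% intervals; filled points had an adjusted p under 0.05, and genes are ordered by the 24 h interaction. At 24 h the red points lie to the right of the blue ones for 32 of the genes and to the left for 8, of which MX1, ISG20, HERC5 and IFITM1 are at the foot of the list.

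A set of 4 genes, ISG20, IFITM1, MX1 and HERC5, rose with TAM in siNEG cells at 24 h. At that time under TAM they were also lower in siSTAT3 cells. ISG20, an exonuclease that degrades RNA, read 188, 200.4 and 162 units in siNEG EtOH 24 h and 1401, 1302 and 1463 units in siNEG TAM 24 h (2.92 ± 0.12, adjusted p = 5.33e-11). In siSTAT3 cells it went from 264, 206 and 239 to 616 and 588 units, a smaller rise of 1.36, with an interaction of -1.57 ± 0.18, adjusted p = 4.62e-05. At 4 h TAM left it at 160.5, 129 and 153 units in siNEG cells, inside the range of all 4 h arrays. IFITM1, a membrane protein that blocks viral entry, read 10479, 10253 and 11768 units in siNEG TAM 24 h and 3543 and 3313 units in siSTAT3 TAM 24 h (-1.66 ± 0.09, adjusted p = 9.23e-10). It was the member that was lower with siSTAT3 in all 4 comparisons, by -1.01 in EtOH and -1.06 in TAM at 4 h and by -1.16 in EtOH at 24 h, and no siSTAT3 array reached the lowest siNEG array. With TAM it also rose in siSTAT3 cells at 24 h, from 2564, 2574 and 2723 units in EtOH. That call held in 6 of 14 recomputations with other settings or 1 array left out. The probe set of IFITM1 is of a type that can match transcripts of related genes. The main probe sets of OAS1, OASL, IFIT5, TRIM22, ISG15, DDX60, IRF7, PARP9, TAP1, IFI35 and IFI44 are of the same type.

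MX1, a dynamin-like GTPase that traps viral nucleoproteins, was bright on 3 arrays of the 23. It read 281, 296 and 275 units in siNEG TAM 24 h and 13.1 and 5.79 units in siSTAT3 TAM 24 h, and the highest array of any other group read 27.5 units. The log2 difference between these groups was -5.02 ± 0.82, adjusted p = 0.000378, and the TAM effect in siNEG cells was 4.48 ± 0.73, adjusted p = 0.000421. Their interaction was -5.22. These sizes depend on the dim groups: with 32 units added to each signal they were -2.93, 2.75 and -2.95, all still called. HERC5 is described above, and its interaction of -0.64 was not called. IFI35 also rose with TAM in siNEG cells at 24 h (0.50) and was lower with siSTAT3 at 4 h of TAM (-0.53). So did CMPK2, from 180, 156 and 137 units in siNEG EtOH 24 h to 249, 281 and 187 units in siNEG TAM 24 h. It too was lower with siSTAT3 at 4 h of TAM. The 6 members called in none of the knockdown or TAM comparisons were IRF7 and the 5 dim genes, whose group means lay between 4.19 and 84.4 units.

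At 4 h of TAM in siNEG cells the largest rise was that of APOL6. This gene, an apolipoprotein L family member, read 278, 266 and 358 units in siNEG EtOH 4 h and 743, 765 and 695 units in siNEG TAM 4 h (1.30 ± 0.15, adjusted p = 4.3e-05). In siSTAT3 TAM 4 h it read 391, 376 and 422 units, -0.89 in log2 against siNEG TAM, and the groups did not overlap. Its interaction at 4 h was -0.94 ± 0.21 with an adjusted p of 0.0667. IFIT3 (1.02), IFIT2 (0.95), IRF9 (0.76), GBP1 (0.75), PARP9 (0.74), IRF1 (0.72), IFIH1 (0.50) and TAP1 (0.49) made up the rest of the 9 that rose in siNEG cells. Of these, IFIT2, IRF9, GBP1, IRF1 and IFIH1 were the 5 that also rose in siSTAT3 cells at 4 h, by 0.55 to 1.01. In fits to the compared arrays alone both 4 h counts were 0, with 13 genes in siNEG cells and 11 in siSTAT3 cells higher at an unadjusted p under 0.05 by limma. Over all genes these fits called 47 in siNEG cells and 0 in siSTAT3 cells. The 5 became 3 without siSTAT3 EtOH 4 h replicate 1.

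Time in culture moved the genes as well. In EtOH 13 rose and 2 fell from 4 to 24 h with siNEG (6.82% and 5.52% of all genes), and 14 rose and 4 fell with siSTAT3 (8.14% and 5.28%). In TAM 14 rose and 10 fell with siNEG (11.3% and 9.86%), and 23 rose and 3 fell with siSTAT3 (9.08% and 5.15%). The knockdown by time interaction was called for 18 genes in TAM, 16 of them higher (2.96% of all genes) and 2 lower (2.13%). In EtOH it was called for 0, with 1 higher and 1 lower at an unadjusted p under 0.05 by limma (0.00506% of all genes were called higher and 0.0101% lower). The 18 genes that changed with time in siSTAT3 EtOH cells became 11 without siSTAT3 EtOH 24 h replicate 3. GBP1, a GTPase that coats intracellular pathogens, fell in every time comparison. It read 2777, 3367 and 2939 units in siNEG EtOH 4 h and 698, 693 and 717 units in siNEG EtOH 24 h, and its log2 change with time lay between -2.80 and -1.98. At 24 h of TAM it read 657, 774 and 766 units with siNEG and 1652 and 1251 units with siSTAT3 (0.98 ± 0.16, adjusted p = 0.00035). IFI44L rose in every time comparison, by 0.80 to 1.44.

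The genes upstream were listed by their place in the pathway. All 9 interferon genes with a probe set were dim, and the highest group mean was 82.5 ± 32.2 units, for IFNE in siSTAT3 TAM 24 h, against 34.1 ± 2.06 units in siNEG TAM 24 h (limma, adjusted p = 0.0309, with both groups dim). IFNB1 had group means of 3.22 to 18.4 units and IFNK of 16 to 35.5 units, and neither was called in a knockdown or TAM comparison. The receptor chains for type I interferon, IFNAR1 and IFNAR2, were called in none of the 16 comparisons. IFNAR1 read 396 ± 23.9 units in siNEG TAM 24 h and 367 ± 17.8 units in siSTAT3 TAM 24 h.

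IFNGR1, the ligand-binding chain for interferon gamma, was lower with siSTAT3 in all 4 comparisons, from -0.88 to -0.40, and IFNGR2 was lower at 24 h of TAM (-0.49). Of the kinases, JAK1 was higher with siSTAT3 at 24 h of TAM (2607 ± 73 against 4001 ± 438 units; 0.61 ± 0.09, adjusted p = 8.05e-05) with an interaction of 0.59, JAK2 was lower there (-1.55 ± 0.27, adjusted p = 0.000651), and TYK2 was not called in a knockdown or TAM comparison. In all, 1 of 9 receptors and kinases was higher and 3 lower in that comparison, beside 9.72% and 6.77% of all genes.

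Of the 5 measured STAT and feedback genes 4 were lower with siSTAT3 at 24 h of TAM, beside 6.77% of all genes. STAT3, the target of the siRNA, was among the 4. PIAS1, an inhibitor of STAT proteins, was not called (0.08). SOCS3, an inhibitor of JAK kinases induced by STAT3, read 8070.0, 8494 and 7602 units in siNEG TAM 24 h and 242 and 112 units in siSTAT3 TAM 24 h (-5.61 ± 0.38, adjusted p = 1.81e-08). It rose with TAM in siNEG cells by 3.34 at 4 h and 4.28 at 24 h, and its interaction at 24 h was -2.80 ± 0.51, adjusted p = 0.00316. SOCS1, the related inhibitor induced by interferon, was at 217 ± 33.5 units in siNEG TAM 24 h and 111 ± 6.11 units in siSTAT3 TAM 24 h (-0.96 ± 0.22, adjusted p = 0.00668), with an interaction of -1.53 against EtOH groups under 100 units. PTPN2, a phosphatase that acts on JAK and STAT proteins, was lower (-0.88).

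**Figure D5:**
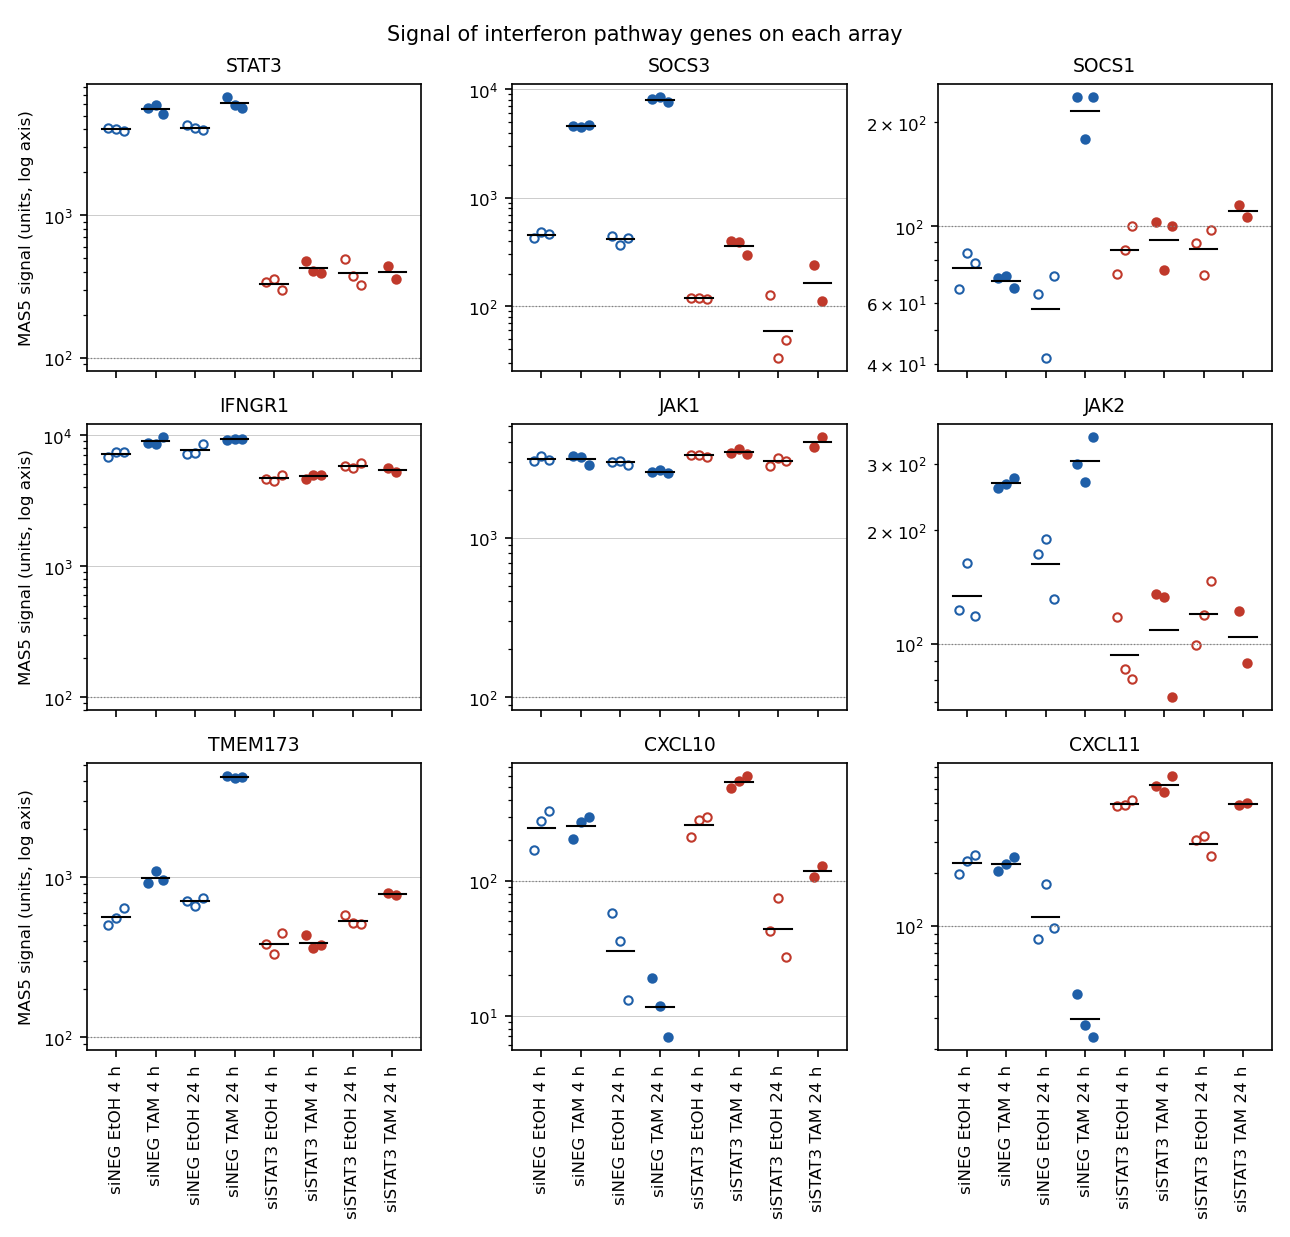
MAS5 signal (log axis) of 9 pathway genes on each array, drawn as for the 9 interferon-stimulated genes: blue siNEG, red siSTAT3, open EtOH, filled TAM, bars for geometric means. SOCS3, SOCS1 and TMEM173 are highest in siNEG TAM 24 h, and CXCL11 is higher with siSTAT3 in each treatment and time.

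Of 16 genes of nucleic acid sensing, 4 were higher and 1 lower with siSTAT3 at 24 h of TAM, where 9.72% of all genes were higher and 6.77% lower. The lower one was TMEM173, the DNA-sensing adaptor STING, at 4223 ± 66.3 units in siNEG TAM 24 h and 785 ± 17.8 units in siSTAT3 TAM 24 h (-2.43 ± 0.13, adjusted p = 1.25e-09). TMEM173 had risen with TAM in siNEG cells by 2.58. The RNA sensor DDX58 rose with TAM in siNEG cells at 4 h (0.65) and in siSTAT3 cells at 24 h (0.68). EIF2AK2, the RNA-activated kinase PKR, was 0.39 higher with siSTAT3 at 24 h of TAM, as were the kinase IKBKE (1.03) and the adaptor TICAM1 (0.70). TLR3 and IRF3 were called in none of the knockdown or TAM comparisons.

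A further 32 interferon-induced genes outside the 40 moved in both directions. At 24 h of TAM 7 were higher and 4 lower with siSTAT3 (9.72% and 6.77% of all genes), and with TAM in siSTAT3 cells at 24 h 9 rose and 0 fell (2% and 0.748%). At 4 h of TAM in siNEG cells 11 rose and 0 fell (1.67% and 1.58%). The chemokines CXCL10 and CXCL11, which draw T cells, were among the higher ones. CXCL11 was at 30.6 ± 9.08 units in siNEG TAM 24 h and 489.8 ± 8.96 units in siSTAT3 TAM 24 h (4.04 ± 0.25, adjusted p = 5.84e-09), and CXCL10 at 12.5 ± 6.1 and 118 ± 14.9 units (3.35 ± 0.53, adjusted p = 0.000264). CXCL11 fell with TAM in siNEG cells at 24 h (-1.92). The siNEG TAM 24 h arrays were dim for both, so the sizes are uncertain: with 32 units added to each signal the group means differed by 3.07 for CXCL11 and 1.76 for CXCL10, and the fall of CXCL11 was -1.23. IFI16, a DNA sensor, was lower with siSTAT3 at 4 h of TAM (-1.61), and CD274, which encodes PD-L1, rose with TAM in siNEG cells at 24 h (1.63). Of 11 antigen-presentation genes 3 were higher and 0 lower with siSTAT3 at 24 h of TAM (9.72% and 6.77% of all genes), among them NLRC5, the activator of class I genes (1.05), and the immunoproteasome subunit PSMB10 (0.65). HLA-F rose by 0.70 with TAM in siSTAT3 cells.

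ISRE matches were found in genes of every pattern. Of the 19 genes with a higher TAM response in siSTAT3 cells at 24 h, 17 had a promoter window, and 13 of those held an ISRE and 5 a GAS. Of the 3 with a lower response all 3 had a window with an ISRE and 2 held a GAS. Of the 18 not called 12 had a window, with an ISRE in 7 and a GAS in 5. Over all 32 genes with a window 23 held an ISRE, 12 a GAS and 8 both. IRF9, which rose in all 4 TAM comparisons, held no ISRE match in the 130 bases before its start.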

How the data were processed

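RNA of MCF-10A-ER-Src cells was hybridised to 23 Affymetrix HG U133 Plus 2.0 arrays. The authors deposited MAS5 signals, a linear intensity per probe set, scaled on each array to a trimmed mean of 500 units (2% trimmed at either end); the deposited table holds no detection calls. Of 54675 probe sets, 41097 were assigned to 1 symbol in the annotation, 1801 to several and 11777 to none, and genes without a probe set of their own were not analysed here. Log2 signals were fitted in limma 3.58.1 (R 4.3.3) with 1 mean per group over all arrays, moderated by eBayes (15 residual and 1.27 prior degrees of freedom), and p-values were adjusted by Benjamini-Hochberg over all probe sets. There were 16 comparisons: 4 of siRNA, 4 of TAM, 4 of time and 4 interactions. The procedure was tested on simulated data. The number of arrays limits the precision. No 2 arrays were identical.

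The genes, the lists and the tests were chosen with earlier results of these data known. Members with a group mean of at least 100 units that were called in a siRNA or TAM comparison, 24 at most by size of change, are given with the value of each array in the groups that a result turns on, and the heat map shows all arrays. Promoters are those of RefSeq on GRCh38.p14. Alternatives were the limits of the study's methods (p under 1e-04 and a log2 change over 0.5), 32 units added, a filter on dim probe sets, quantile normalization, eBayes with trend and robust, a replicate block, only the compared groups, the mean of a gene's probe sets, each array left out and, added after seeing the data, the ACTB ratio as a covariate.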

Additional observations from a re-analysis of the deposited data

Results flagged for a closer look

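A TAM response that differed between the siRNA groups at 24 h, by the interaction term of the limma fit, is a difference between groups under the same contrast, and it was called for 22 genes. Positive values mean a higher response in siSTAT3 cells. Of the 22, 19 were higher and 3 lower, beside 3.42% and 2.49% of all genes. Among the RNA-binding enzymes the interaction was 2.82 for IFIT1, 1.18 for IFIT2, 1.00 for OAS1, 0.96 for IFIT3, 0.73 for SAMD9, 0.59 for OAS3 and 0.47 for IFIT5, and it was -1.57 for ISG20. Among membrane and restriction factors it was 1.18 for TRIM22, 0.71 for BST2, -0.50 for IFITM1 and -5.22 for MX1, whose size rests on dim groups and was -2.95 with 32 units added. It was 1.12 for HERC6 and 1.09 for ISG15. Among sensors and transcription factors it was 0.77 for DDX60, 0.74 for IRF1 and 0.63 for IFIH1. PSMB9 had 0.81. The remaining genes were IFI27 with 2.81, IFI6 with 1.34, IFI44 with 1.31 and IFI44L with 0.54. Over 20 recomputations with other settings or 1 array left out, the call held in 8 for OAS3 and BST2. It held in 9 for IFIT3, IFIT5 and IFI44L, in 10 for DDX60 and PSMB9, and in 11 or more for the others.

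A knockdown effect that differed between 4 and 24 h of TAM was called for 18 genes, and positive values mean a higher effect at 24 h. Of the 18, 16 were positive and 2 negative, beside 2.96% and 2.13% of all genes. The largest was 2.34 for IFI27, followed by 1.77 for IFIT1 and 1.53 for IFIT3. The value was 1.37 for IFI6, 1.37 for HERC6, 1.35 for TRIM22, 1.16 for IFIT2, 1.06 for PARP9 and 1.01 for IFI44. It lay lower for APOL6 (0.86), PSMB9 (0.81), SAMD9 (0.76), ISG15 (0.72), IFIH1 (0.66), IFI44L (0.64) and IFIT5 (0.60). It was negative for ISG20 (-1.41) and IFITM1 (-0.60). Over 20 recomputations the calls of APOL6 and ISG15 held in 7 each, and those of the other genes in 11 or more. Both interactions rest on the 2 siSTAT3 TAM 24 h arrays, whose ACTB 3′ to 5′ ratio of 1.21 was the lowest of any group. With that ratio as a covariate the first count was 13 and the second 16.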

How the results depend on the processing

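Of the log2 changes of called genes, 1131 recomputations with 1 array left out kept direction and call and 298 kept the direction alone; over the other settings 1521 kept both, 322 the direction alone and 4 reversed. The 4 came from averaging a gene's probe sets: HERC6 with siSTAT3 at 24 h of TAM (-0.24) and with time in siNEG TAM (0.17) and siSTAT3 EtOH (-0.16), and OAS3 with time in siNEG TAM (-0.16). The limits of the study's methods gave 6 genes for siSTAT3 at 4 h of TAM, 6 for TAM in siNEG cells at 24 h, 5, 13 and 10 for time in siNEG EtOH, siNEG TAM and siSTAT3 EtOH, and 7 and 8 for the 24 h TAM and the TAM time interactions. Fits to the compared groups alone, with 3 to 8 residual degrees of freedom, gave by limma 0 genes for siSTAT3 in EtOH at 4 h (4 higher and 7 lower at an unadjusted p under 0.05) and at 24 h (5 and 7), 3 at 4 h of TAM and 10 at 24 h. They gave 0 for TAM in siNEG cells at 4 h (13 and 1 unadjusted), 5 at 24 h, and 0 in siSTAT3 cells at 4 h (11 and 1) and 24 h (28 and 0). For time they gave 1 in siNEG EtOH, 15 in siNEG TAM, 3 in siSTAT3 EtOH and 0 in siSTAT3 TAM (26 and 2). For the 24 h TAM and TAM time interactions they gave 9 each. Over all genes these fits called 24, 0, 253 and 643 for siSTAT3, in the order given. For TAM they called 47 and 1106 in siNEG cells and 0 and 0 in siSTAT3 cells at 4 and 24 h. For time they called 157, 1823, 747 and 0, and for the interactions 643 and 363. The filter on dim probe sets gave 7 for siSTAT3 in EtOH at 24 h, 8 for TAM in siSTAT3 cells at 4 h and 1 for the 4 h interaction, which was also 1 with 32 units added and with trend and robust; averaging probe sets gave 3 for TAM in siSTAT3 cells at 4 h, and the ACTB ratio 13 for the 24 h interaction.

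With each array left out in turn, siSTAT3 against siNEG gave 4 to 5 genes in EtOH at 4 h, 4 at 24 h, 8 to 10 in TAM at 4 h and 20 to 24 at 24 h. TAM gave 8 to 10 and 7 to 13 in siNEG cells and 3 to 5 and 13 to 18 in siSTAT3 cells. Time gave 11 to 14 in siNEG EtOH, 18 to 24 in siNEG TAM, 11 to 15 in siSTAT3 EtOH and 20 to 25 in siSTAT3 TAM, the 4 h and 24 h TAM interactions 0 to 1 (1 without siNEG EtOH 4 h replicate 3) and 11 to 19, and the time interactions 0 in EtOH and 12 to 17 in TAM. The arrays share replicate numbers, and same-numbered arrays deviated together weakly: their median correlation was 0.0276 (-0.0172 for other numbers), 11 of 77 pairs were above 0.1 and 14 of 23 arrays correlated best with their own number. A replicate block kept 212 of 217 member calls, and the 24 h interaction gave 19 genes under that block in place of 22. The 5 dim genes could show a change only above the array's background, and none of them was called in a knockdown or TAM comparison.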
